A study of Mus musculus with 27 samples.

Results

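The 10 genes described here encode the machinery that licenses DNA replication origins: *Mcm2*, *Mcm3*, *Mcm4*, *Mcm5*, *Mcm6* and *Mcm7*, the loading factors *Cdc6*, *Cdt1* and *Orc1*, and the inhibitor *Gmnn*. They were chosen by symbol, as the rows with these names in all 5 RNA-Seq tables of the series, out of 14558 genes listed in every table. Each gene had 1 row per table, and all 10 passed the filter on low counts in each comparison.

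All RNA came from mouse erythroleukaemia (MEL) cells, a line of transformed erythroid progenitors grown as 1 clone, in which terminal maturation can be induced. The 21 RNA libraries formed 11 groups. In the *Cbfa2t3* table (the gene encoding the corepressor ETO2), 2 Eto2 WT libraries stood against 2 Eto2 KD-sh2 and 2 Eto2 KD-sh3 libraries, made with different short hairpin RNAs. The *Irf2bp2* table held 2 Irf2bp2 WT and 2 Irf2bp2 KD-sh1 libraries, and the *Kdm1a* table (encoding the histone demethylase LSD1) held 1 Lsd1 WT and 2 Lsd1 KD libraries. For *Gfi1b*, a transcriptional repressor, there were 2 Gfi1b WT and 2 Gfi1b KD libraries. The study used small interfering RNAs #1 and #7 for this KD, and the labels do not say which of them each KD library received. The last table compared 2 MEL non-induced with 2 MEL induced libraries, the latter after 96 h per a figure legend of the study. WT here means the same cells given a non-targeting hairpin or small interfering RNA. The knockdown (KD) cells were collected at 48 or 72 h per the study's methods. A figure legend gives 72 h for the *Cbfa2t3*, *Irf2bp2* and *Kdm1a* KD. The study's methods call replicates independent biological samples, but the labels do not name separate cultures, so p-values measure the spread between these libraries.

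Before S phase, the origin recognition complex, of which ORC1 is a subunit, recruits CDC6 and CDT1 to DNA, and these load the ring of MCM2 to MCM7 that later becomes the core of the replicative helicase. Geminin, the product of *Gmnn*, binds CDT1 and blocks a second round of loading in the same cycle. Transcription of most of these genes is driven by E2F factors at the G1/S transition, and erythroid cells divide a limited number of times before they leave the cycle during terminal maturation.

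A shared sequence feature of these genes lies at their starts, and a few examples are printed from ring and loader genes whose RNA values are given below. Promoters (250 bases before to 50 after a RefSeq start, GRCm38.p6) were matched for 8 genes, all but *Mcm4* and *Gmnn*. At least 1 of 4 E2F words (TTTCCCGC, TTTCGCGC, TTTGCCGC or TTTGGCGC, either strand) was present in 7 of these 8 genes, all but *Mcm2*, whereas 2.6% of 27025 genes held one. In the 30-base windows below, given 5′ to 3′ on the gene's strand, capitals mark the E2F words, overlapping words being merged.
Mcm5: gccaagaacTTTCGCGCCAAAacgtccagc
Mcm6: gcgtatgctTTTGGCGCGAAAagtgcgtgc
Orc1: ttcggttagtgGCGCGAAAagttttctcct
Cdc6: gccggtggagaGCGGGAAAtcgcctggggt

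On mm9 these windows lie at chr8:77633246-77633275 (plus strand) for *Mcm5*, chr1:130256372-130256401 (minus strand) for *Mcm6*, chr4:108252021-108252050 (plus strand) for *Orc1* and chr11:98769316-98769345 (plus strand) for *Cdc6*. The words of *Mcm5* and *Mcm6* are pairs of opposite orientation that overlap, while *Orc1* and *Cdc6* have a single word each in the window shown. CCAAT was found in 6 of the 8 genes (41.1% of all genes) and the GC box GGGCGG in 6 (38.2%). A GATA word, meaning GATA with A or T before and A or G after it, on either strand, was found only in *Mcm7* of the 8 (33.0% of all genes). A match is a description of the letters and does not show that a factor binds there.

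Levels between genes were compared as the authors' RPKM (reads scaled to transcript length and library size). In the 9 control libraries the MCM genes formed the upper end, with medians of 160.0 RPKM for *Mcm6*, 156 for *Mcm3*, 147 for *Mcm2*, 142 for *Mcm5*, 112 for *Mcm7* and 89.8 for *Mcm4*. *Gmnn* followed at 85.1, then *Cdt1* at 44.8, *Cdc6* at 32.9 and *Orc1* at 23.8. The loaders were thus listed at lower levels than the ring they load. The control ranges of neighbouring genes in this order overlapped at every step except between *Gmnn* (lowest control 56.0) and *Cdt1* (highest control 49.6). These orders are descriptions, because the 5 tables were not normalized together.

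**Figure D1:**
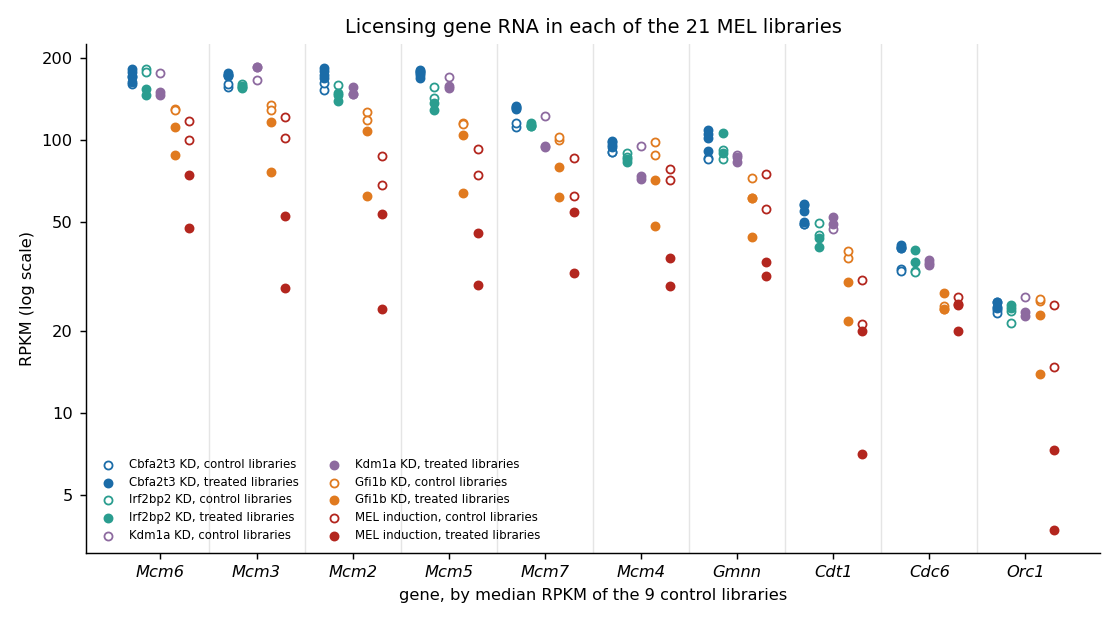
RPKM (log scale) of each licensing gene in all 21 libraries, ordered by the median of the 9 control libraries; open circles are control libraries, filled circles KD or induced libraries, and colours mark the 5 tables. Both induced MEL libraries are the lowest for each gene but *Cdc6*, and the spread over all libraries is smallest for *Cdc6* (highest over lowest 2.08) and widest for *Cdt1* (8.25).

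The 6 ring subunits, which enter the complex in equal number, differed in RNA level by 1.36 to 2.05 times between the highest and the lowest gene within a control library, and *Mcm4* was the lowest in 8 of the 9. *Cdc6* amounted to 20.4 to 30.3% of the mean MCM level in the controls. In the induced cells it reached 47.1 and 62.4%. The ratio of *Gmnn* to *Cdt1* RPKM ran from 1.65 to 3.54 in controls and was 1.79 and 4.51 in the induced libraries, so that this ratio did not separate the groups.

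Depth was 44519414 to 57684583 counts in the 13 short hairpin libraries and 9929311 to 19623105 in the other 8, and the 10 genes took 0.285 to 0.342% and 0.0737 to 0.249% of these counts. In each library the erythroid genes *Gata1*, *Klf1*, *Tal1*, *Epor*, *Nfe2* and *Gfi1b* summed to 954 to 2320 CPM (read counts scaled to library size with TMM factors), against 1.78 to 19.9 CPM for myeloid, 0.0498 to 1.78 CPM for lymphoid and 2.20 to 44.5 CPM for stromal genes. These sums cover the markers each table listed, which were 2 to 7 of 8 myeloid, 3 to 7 of 8 lymphoid and 4 to 5 of 6 stromal genes. The erythroid, late erythroid, megakaryocyte and stromal sums are given beside each comparison. One library stood against its label: *Gfi1b* itself was at 122 and 145 CPM in the Gfi1b WT libraries, at 216 in the library labelled Gfi1b KD replicate 1 and at 76.5 in KD replicate 2. The other targeted genes were lower in each KD library than in each of its controls. In bulk RNA, fewer cells of a type and less RNA per cell cannot be told apart, which holds for every comparison below.

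Induction of MEL cells asked how the licensing genes change as these progenitors mature, and it gave the widest shifts. Induced libraries lay below non-induced ones for all 10 genes (34.5% of the 11713 genes tested lay fully lower). Of the 10, 7 fell at an edgeR adjusted p of at most 0.05 with a log2 fold change of at least 0.5 in size, and 14.8% of all genes tested fell by that rule. The median log2 fold change was -0.96 for the 10 genes and -0.02 over all genes tested. *Cdc6* was the gene that moved least.

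Among the loading factors, *Orc1*, the ATPase subunit that marks the origin, was at 73.1 and 45.2 CPM without induction and at 21.9 and 11.6 CPM with it. Its fold change was the largest of the 10 genes, 3.53-fold lower (log2 fold change -1.82, SE 0.34, edgeR adjusted p = 0.0022, n = 2 and 2). *Cdt1*, which brings the ring to the origin, was at 65.4 and 47.4 CPM against 43.4 and 16.0 CPM, and its log2 fold change of -0.93 (SE 0.38) missed the threshold at an edgeR adjusted p of 0.082, the value running from -0.37 without induced replicate 2 to -1.83 without induced replicate 1. *Cdc6*, the ATPase that cooperates with ORC in loading, was at 117 and 116 CPM before and at 112 and 93.2 CPM after induction. The difference of -0.18 on the log2 scale had a 95% interval of -0.69 to 0.32 (edgeR adjusted p = 0.60), and was -0.33 without induced replicate 1 and -0.0418 without induced replicate 2. Whether *Cdc6* differed from the other 9 genes in its response was not tested.

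Of the 6 ring subunits 5 fell, and *Mcm7*, also lower in both induced libraries, missed the threshold. *Mcm3* was at 341 and 299.8 CPM without and at 151 and 85.4 CPM with induction, 2.71-fold lower (log2 fold change -1.44, SE 0.28, edgeR adjusted p = 0.0027). *Mcm4* was at 274 and 261 CPM against 132 and 109 CPM, 2.22-fold lower (edgeR adjusted p = 0.0037). *Mcm5* was at 308 and 262 CPM against 155 and 104 CPM, 2.20-fold lower (edgeR adjusted p = 0.0064). For each of these 3 subunits the lower non-induced library was above the higher induced library by a wide margin. *Mcm2* was at 286 and 235 CPM against 179 and 83.5 CPM, 1.98-fold lower (edgeR adjusted p = 0.032). *Mcm6* was at 283 and 348 CPM against 214 and 143 CPM, 1.77-fold lower (edgeR adjusted p = 0.032). *Mcm7* was at 201 and 153 CPM against 129.6 and 80.6 CPM (log2 fold change -0.75, SE 0.28), with an edgeR adjusted p of 0.056, and it passed with DESeq2 (adjusted p = 0.043). Whether *Mcm7* differed from the other subunits was not tested. Exons of *Mcm7* share 12.6% of their bases with *Ap4m1*, *Cops6*, *Mir25* and *Mir93*, and exons of *Orc1* share 8.05% with the antisense gene *Gm12743*. Whether the counting used strand is not stated, so those reads cannot be assigned with certainty.

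*Gmnn*, the brake on relicensing, was at 53.1 and 74.7 CPM in non-induced and at 34.6 and 32.1 CPM in induced cells, 1.91-fold lower (log2 fold change -0.94, SE 0.27, edgeR adjusted p = 0.019).

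**Figure D2:**
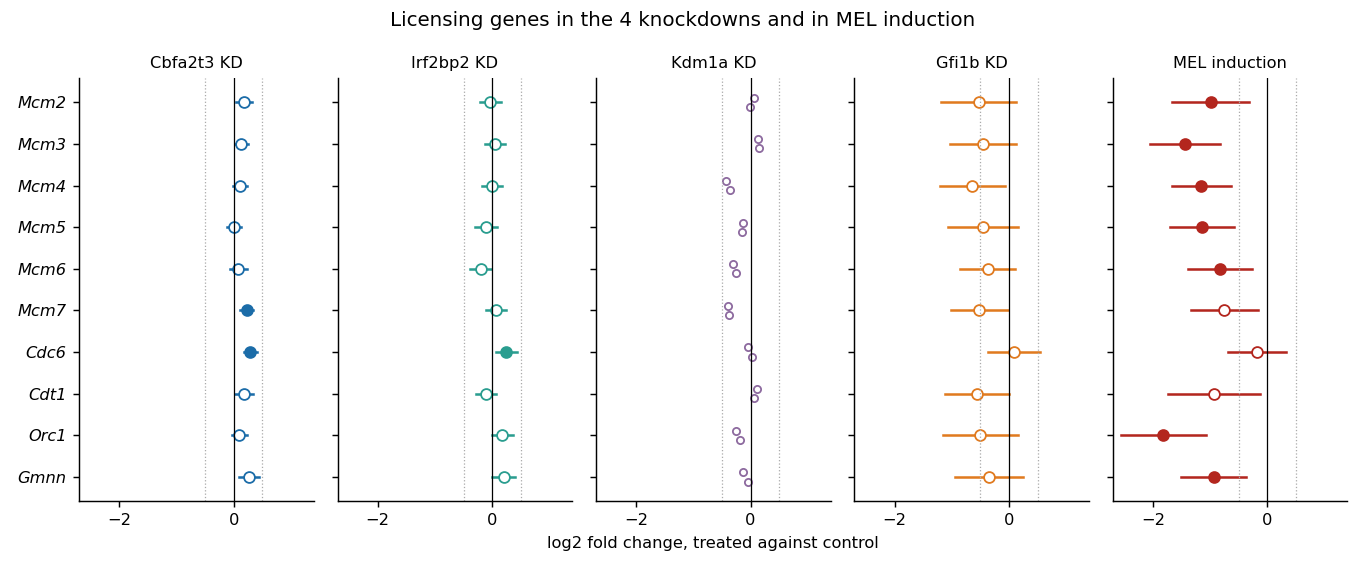
Log2 fold change of each licensing gene, treated against control, in the 5 comparisons; points are edgeR estimates with 95% intervals, filled where the adjusted p is at most 0.05, and for *Kdm1a*, with 1 control library, each of the 2 KD libraries is drawn without a test. Dotted lines mark the fold limit of 0.5. Of the 10 genes, 7 are filled in MEL induction, 2 in the *Cbfa2t3* KD and 1, *Cdc6*, in the *Irf2bp2* KD.

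The 2 induced libraries differed: for each gene replicate 2 was the lower, and the 10 genes took 0.120% of counts in replicate 1 and 0.0737% in replicate 2. Non-induced replicate 2 was also below non-induced replicate 1 in CPM for each gene but *Mcm6* and *Gmnn*. Without induced replicate 2, *Mcm3*, *Mcm4* and *Orc1* alone passed (3 of 10, with 6.99% of all genes lower by the rule), while without induced replicate 1 all but *Cdc6* did (9 of 10, with 16.1%). The log2 fold change of *Mcm2* was -0.53 and -1.65 in these respective fits, that of *Mcm6* -0.55 and -1.15 and that of *Mcm7* -0.44 and -1.14. With non-induced replicate 1 or 2 left out 4 passed (7.25 and 6.52% of all genes), and *Mcm3*, *Mcm4* and *Orc1* were among them each time. In each of these fits the arm with 1 library was assumed to vary like the other. The late erythroid genes *Alas2*, *Epb4.2*, *Slc4a1* and *Slc22a4*, all 4 of which rose, summed to 29.6 and 39.7 CPM without and to 1373 and 1421 CPM with induction. The erythroid genes *Gata1* to *Gfi1b* named above, of which 5 of 6 rose, summed to 954 and 1219 CPM without and to 2216 and 2320 CPM with induction. Of 6 megakaryocyte markers, 2 rose (*Itga2b*, *Gp1ba*) and 1 fell (*Ppbp*), with sums of 389.7 to 529 CPM without and 1187 to 1322 CPM with induction. Stromal markers, of which *Pdgfrb* fell (log2 fold change -1.67), summed to 22.4 and 23.6 CPM without and to 4.47 and 11.2 CPM with induction. The part of these lists in the licensing result was not tested.

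In the *Gfi1b* KD, no licensing gene was called, and no gene of 11190 was called by edgeR (0%), although 9 of the 10 were lower in both KD libraries than in both controls (19.6% of genes tested were). At an unadjusted p under 0.05, 2 of the 10 passed, *Mcm4* and *Mcm7* (7.01% of all genes did), and DESeq2 called 0 of the 10 and 59 genes overall. The median log2 fold change was -0.48 for the licensing genes and 0.02 over all genes.

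This comparison rests on the library labelled Gfi1b KD replicate 1, in which *Gfi1b* was not lower. *Mcm2* was at 426 and 398 CPM in the controls, at 212 CPM in the library labelled KD replicate 1 and at 359.6 CPM in KD replicate 2. *Mcm4* was at 354 and 315 CPM in the controls, then at 176 and 254 CPM in the same order of KD libraries. *Mcm7* was at 240.1 and 245 CPM, then at 149 and 189.8 CPM. The library labelled KD replicate 1 was thus the far one for the helicase genes, with replicate 2 nearer to the controls.

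The other ring genes had the same order. *Mcm3* was at 388 and 369.9 CPM in the controls against 221 and 333 CPM, *Mcm5* at 397 and 389 CPM against 221 and 353 CPM, and *Mcm6* at 379 and 371 CPM against 258 and 322 CPM. Among the loaders, *Orc1* was at 77.4 and 78.5 CPM against 42.3 and 68.2 CPM, and *Cdt1* at 81.3 and 85.7 CPM against 48.2 and 65.8 CPM. *Gmnn* was at 60.0 and 70.7 CPM against 43.3 and 59.5 CPM, the last close to the lower control. The exception was *Cdc6*, with 109 and 111 CPM in the controls and 110.2 and 124 CPM in the libraries labelled KD. Its log2 fold change was 0.09 (95% interval -0.37 to 0.55).

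With KD replicate 2 left out, so that the library labelled KD replicate 1 stood alone and was assumed to vary like the controls, 9 of the 10 passed, all but *Cdc6*, with log2 fold changes from -0.98 (*Mcm2*) to -0.56 (*Mcm6*), and 3148 genes were called in all, 12.0% of those tested being lower. With the library labelled KD replicate 1 left out, 0 of the 10 passed, 396 genes were called (1.23% were lower), and the members' median was -0.20. The lowest of these adjusted p-values was 0.14, for *Mcm4*. Late erythroid genes summed to 10.9 and 15.6 CPM in the controls, to 24.4 CPM in KD replicate 2 and to 1057 CPM in the library labelled KD replicate 1. Megakaryocyte markers, of which 5 were listed, summed to 227 to 292 CPM in the controls and 179 to 905 CPM in the KD libraries. The 6 erythroid genes summed to 1071 to 1179 CPM in the controls and 1109.9 to 1879 CPM in the KD libraries, and stromal markers to 17.1 to 19.3 and 23.8 to 44.5 CPM. Whether these lists bear on the licensing genes was not tested.

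**Figure D3:**
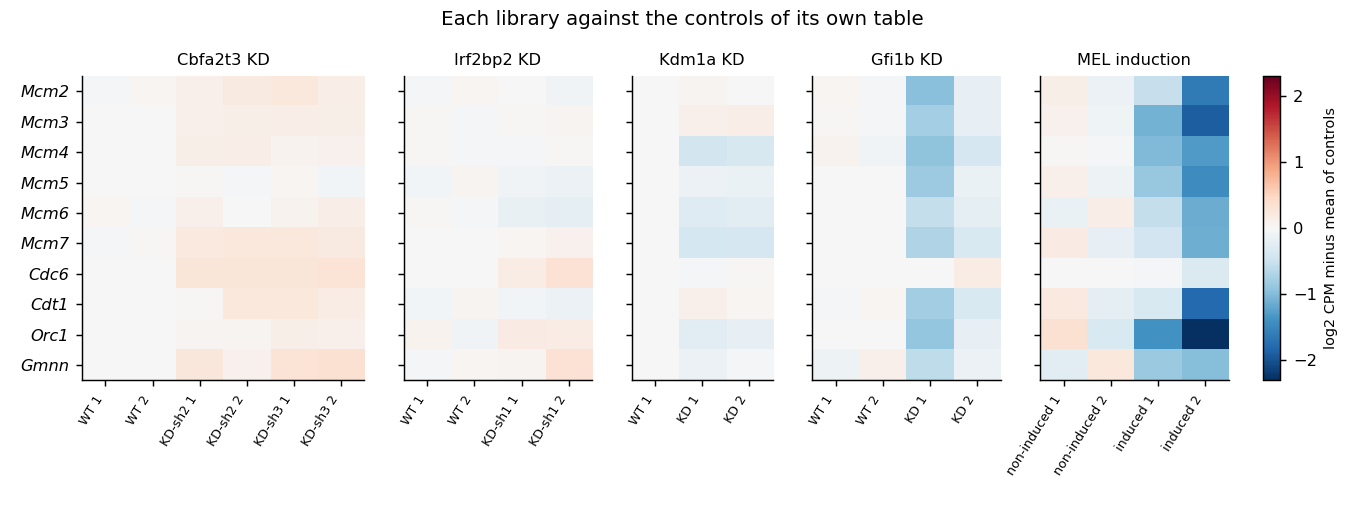
Log2 CPM of each licensing gene in each library minus the mean of the control libraries of its own table; blue is lower and red higher. The library labelled Gfi1b KD 1 and both induced MEL libraries are blue for all genes but *Cdc6*, which is paler, and the 4 *Cbfa2t3* KD libraries are pale red for most genes.

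In the *Cbfa2t3* KD, no gene of the 10 reached the fold limit of 0.5 (5.74% of the 12537 genes tested did, at an adjusted p of at most 0.05), and 2 rose at an edgeR adjusted p of at most 0.05 regardless of size (5.47% of all genes did). At an unadjusted p under 0.05, 6 of the 10 passed (26.2% of all genes did). DESeq2 called 0 at the fold limit, and without it passed *Cdc6*, *Mcm7* and *Gmnn* (adjusted p = 0.028 for *Gmnn*), with 14.6% of all genes passing. All 4 KD libraries lay above both controls for 8 genes, all but *Mcm5* and *Mcm6* (19.1% of all genes lay fully higher). The median log2 fold change was 0.16 for the licensing genes and 0.00 over all genes. *Cbfa2t3* itself was at 400.3 and 427 CPM in the controls, 202 and 244 CPM with sh2, and 123 and 145 CPM with sh3 (log2 fold change -1.21, SE 0.22, edgeR adjusted p = 0.0095).

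With both hairpins pooled and all libraries kept *Cdc6* rose most, from 152 and 150.0 CPM in the controls to 183 and 184 CPM with sh2 and 184 and 188 CPM with sh3. This was 22.1% higher (log2 fold change 0.29, SE 0.05, edgeR adjusted p = 0.0073, n = 2 and 4), and the spread within each group was far narrower than the step between them. *Mcm7* was at 266 and 275 CPM in the controls against 314, 319, 319 and 313 CPM after the KD, 16.9% higher (log2 fold change 0.23, SE 0.05, edgeR adjusted p = 0.023). With a single control library left, neither gene passed: without Eto2 WT replicate 1 the adjusted p was 0.10 for *Cdc6* and 0.26 for *Mcm7*, and without replicate 2 it was 0.11 and 0.14. Without Eto2 KD-sh3 replicate 1, *Mcm7* had an adjusted p of 0.059. Against the controls, sh2 alone gave the same 2 genes (8.36% of all genes rose at an adjusted p of at most 0.05), whereas sh3 alone gave 5 (14.9%), *Cdc6*, *Mcm7*, *Gmnn*, *Cdt1* and *Mcm2*, none at the fold limit.

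The brake and the remaining genes did not pass with both hairpins pooled and all libraries kept. *Gmnn* was at 83.6 and 82.6 CPM in the controls, 99.2 and 89.1 CPM with sh2, and 103 and 106 CPM with sh3 (log2 fold change 0.26, edgeR adjusted p = 0.065). It had 0.33 with sh3 alone (edgeR adjusted p = 4.6e-04), 0.18 with sh2 alone (0.097) and 0.31 without Eto2 KD-sh2 replicate 2 (0.013). The log2 fold change of *Cdc6* in these respective fits was 0.30, 0.27 and 0.29. *Mcm2* was at 511 and 542 CPM against 570.5, 606, 624 and 584 CPM (log2 fold change 0.18, edgeR adjusted p = 0.097). *Mcm5* was at 605 and 609 CPM against 618, 597, 624 and 584 CPM, with a log2 difference of -0.0028 and a 95% interval of -0.13 to 0.12. The log2 fold changes of *Mcm3*, *Mcm4*, *Mcm6*, *Cdt1* and *Orc1* were 0.13, 0.11, 0.08, 0.18 and 0.10, that of *Mcm6* running from 0.0346 without Eto2 WT replicate 2 to 0.127 without replicate 1. Without Eto2 KD-sh2 replicate 1, *Cdt1* had 0.22 (edgeR adjusted p = 0.048).

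Both hairpins were compared with each other, since sh3 left less *Cbfa2t3* RNA than sh2 (log2 difference -0.73, SE 0.10, edgeR adjusted p = 7.5e-04). None of the 10 licensing genes differed between them at the threshold (3.71% of all genes did), and 1 passed at an unadjusted p under 0.05 (28.4% of all genes did), *Gmnn*, which was at 94.1 CPM ± 7.14 (SD, n = 2) with sh2 and 104.8 CPM ± 2.25 (SD, n = 2) with sh3 (edgeR adjusted p = 0.13). Its log2 difference of 0.15 was 0.23 without Eto2 KD-sh2 replicate 1 (edgeR adjusted p = 0.035) and 0.0795 without Eto2 KD-sh2 replicate 2. DESeq2 called 0 as well. For *Cdc6* the difference was 0.02 with a 95% interval of -0.09 to 0.13. In the KD libraries late erythroid genes, all 4 of which rose, summed to 282 to 515 CPM, against 85.7 CPM in both controls. Megakaryocyte markers summed to 407 and 420.4 CPM in the controls and to 485 to 597 CPM in the KD libraries, and of the 5 tested 1 was called higher, the platelet receptor gene *Gp9* (log2 fold change 0.68). The 6 erythroid genes, of which 3 were called higher, summed to 1288 to 1321 CPM in the controls and 1670 to 1762 CPM in the KD libraries. Stromal markers, none of which was called, summed to 6.59 to 8.57 and 2.20 to 6.09 CPM. Whether these lists bear on *Cdc6* or *Mcm7* was not tested.

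In the *Irf2bp2* KD none of the 10 genes reached the fold limit, which 22.5% of the 12329 genes tested did. Without that limit 1 of the 10 rose, *Cdc6* (23.6% of all genes did). At an unadjusted p under 0.05, 4 of the 10 passed (53.7% of all genes did). DESeq2 called 0 at the fold limit, and without it passed *Cdc6* and, lower, *Mcm6* (adjusted p = 0.034), with 42.9% of all genes passing. Lying fully higher were 4 genes (36.7% of all genes did) and fully lower 2 (37.4%), and the median log2 fold change was 0.02. *Irf2bp2* itself was at 116 and 119.7 CPM in the controls and at 92.2 and 94.9 CPM in the KD, so that it fell by 20.6% (log2 fold change -0.33, SE 0.08, edgeR adjusted p = 0.0027).

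*Cdc6* was at 148 and 146 CPM in the Irf2bp2 WT libraries against 165 and 185 CPM in the KD libraries, 19.0% higher (log2 fold change 0.25, SE 0.09, edgeR adjusted p = 0.023). Without KD-sh1 replicate 2 its adjusted p was 0.24. *Gmnn*, at 82.5 and 88.4 CPM against 89.1 and 108 CPM, had a log2 fold change of 0.20 (edgeR adjusted p = 0.085), and *Orc1*, at 70.6 and 63.4 CPM against 76.3 and 75.5 CPM, one of 0.18 (edgeR adjusted p = 0.089). With the replicate number as a block, the edgeR adjusted p was 0.044 for *Gmnn* and 0.065 for *Orc1*. With single libraries left out, the *Gmnn* value ran from 0.06 (without KD-sh1 replicate 2) to 0.34 (without KD-sh1 replicate 1) and the *Orc1* value from 0.11 (without WT replicate 2) to 0.26 (without WT replicate 1). In the other direction, *Mcm6* was at 521 and 506 CPM in the controls and at 455 and 438 CPM in the KD (log2 fold change -0.20, SE 0.09, edgeR adjusted p = 0.064). The other ring genes had log2 fold changes from -0.11 (*Mcm5*) to 0.07 (*Mcm7*), and *Cdt1* had -0.10. With single libraries left out, *Mcm5* ran from -0.168 to -0.0352 and *Cdt1* from -0.167 to -0.0282. Late erythroid genes, all 4 of which rose, summed to 84.2 and 101.9 CPM in the controls and to 886 and 996 CPM in the KD. Each of the 5 megakaryocyte markers tested was also called higher, with sums of 373 to 428 CPM in the controls and 802 to 842 CPM in the KD. Stromal markers, of which *Pdgfrb* fell, summed to 5.56 and 6.30 CPM in the controls and to 2.79 and 3.05 CPM in the KD. The 6 erythroid genes, of which 5 were called higher, summed to 1113 and 1207 CPM in the controls and to 2025 and 2070.1 CPM in the KD. Their part in the values of the licensing genes was not tested.

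In the *Kdm1a* KD, 6 of the 10 genes lay below the control in both KD libraries (44.3% of all genes did) and 2, *Mcm3* and *Cdt1*, above it (44.5%). With 1 control library there is no replicate check on that side, and differences are given per library. *Kdm1a* fell from 152 CPM to 16.9 and 16.3 CPM. No licensing gene was past a log2 difference of 0.5 in both KD libraries (22.9% of the 12628 genes were).

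The ring genes were shifted unevenly. *Mcm4* had 342 CPM in the control, then 255 and 266 CPM after the KD, a mean change of -24.0%. *Mcm7* was at 296 CPM against 224 and 226 CPM (-23.8%), and *Mcm6* at 515 CPM against 418 and 434 CPM (-17.4%). *Mcm3* was at 482 CPM against 525 and 534 CPM, 9.76% higher. The highest MCM RPKM within a library was 2.56 and 2.50 times the lowest in the KD libraries (*Mcm3* over *Mcm4*) and 1.86 times in the control (*Mcm6* over *Mcm4*). Over all genes, the log2 values of the 2 KD libraries differed by a median of 0.087 in size (SD of the difference 0.26), while *Mcm4* was at -0.43 and -0.37 relative to the control and ranked 16.7% from the low end of all genes. The deviation of the single control is not measured by that spread.

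Among the loaders and the brake, *Orc1* was lower in both KD libraries and *Cdt1* higher. *Orc1* had 80.4 CPM in the control against 67.5 and 70.8 CPM, *Cdc6* at 161 CPM against 156 and 165 CPM, *Cdt1* at 104 CPM against 113 and 108 CPM, and *Gmnn* at 87.0 CPM against 79.8 and 84.4 CPM. For *Cdc6* the control lay between the KD libraries. Of the late erythroid genes 3 of 4 were lower in the KD, *Epb4.2* (12.6 to 1.22 CPM, log2 difference -3.34), *Slc4a1* (-2.90) and *Slc22a4* (-0.95). *Alas2*, at 66.2 CPM in the control and 69.6 CPM in the KD, made up most of the list's sum of 87.1 CPM in the control and 72.4 and 75.0 CPM in the KD. Stromal markers summed to 6.48 CPM in the control and to 21.4 and 24.6 CPM in the KD, with *Pdgfrb* (1.89) and *Col1a1* (1.07) higher past 0.5 in both KD libraries. The 6 erythroid genes summed to 1287 CPM in the control and to 1206 and 1229 CPM in the KD, *Gfi1b* being higher (1.13) and *Tal1* lower (-0.90). Of the megakaryocyte markers, which summed to 342 CPM in the control and to 287 and 350.3 CPM in the KD, *Ppbp* was higher (2.75) and *Gp1ba* lower (-0.90), and of the lymphoid ones *Cd79a* was higher (1.62, from 0.164 to 0.587 CPM). The part of these lists in the licensing values was not tested.

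*Cdc6* also had the most ETO2 and IRF2BP2 sites of the 10 genes. The site list of the study held 13229 sites bound by ETO2, IRF2BP2 or both in MEL cells, found by chromatin immunoprecipitation. The list codes 3 classes without naming them, and from their sizes they were taken to be 1760 sites of ETO2-only, 2730 shared by both and 8739 of IRF2BP2-only. The list also names no sample for its read numbers, so which immunoprecipitation a site's reads and fold come from is not known. Folds of different classes are therefore compared as listed. Within 5 kb of the gene start (GENCODE vM1, mm9), 4 of the 10 genes had a site, against 18.0% of 22238 protein-coding genes. *Mcm5* and *Orc1* had 1 IRF2BP2-only site each and *Mcm7* had 2. *Cdc6* had 1 IRF2BP2-only and 3 shared sites, and was the sole gene of the 10 with a shared site in this window. Of all 22238 genes, 2.48% had at least 1 shared site there, and 3 genes, *Cdc6* included, had 3 or more.

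The shared sites of *Cdc6* (chr11:98769115-98785254, plus strand) are printed around their GATA words, since ETO2 sits on DNA with a GATA1-containing complex. Letters are mm9, plus strand, with GATA words in capitals, from 20 bases before the first word to 20 after the last.
Upstream site 1, chr11:98766041-98766187: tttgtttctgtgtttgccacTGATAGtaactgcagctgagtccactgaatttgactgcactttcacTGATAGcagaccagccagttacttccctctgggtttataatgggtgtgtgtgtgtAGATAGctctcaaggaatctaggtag
Upstream site 2, chr11:98766528-98766573: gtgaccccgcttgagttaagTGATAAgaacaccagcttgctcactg
Intronic site, chr11:98772970-98773082: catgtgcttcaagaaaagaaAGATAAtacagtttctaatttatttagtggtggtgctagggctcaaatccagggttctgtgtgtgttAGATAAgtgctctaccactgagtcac

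Upstream site 1 (chr11:98765777-98766348) is centred 3013 bases before the *Cdc6* start. It had 107 immunoprecipitated and 0 control IgG reads, a fold of 108 in the deposited list that equals their ratio with 1 read added to each, and ranked 10th of 13229 sites by that fold. As the control count was 0, the fold depends on the added read. It held 3 GATA words within 100 bases of its centre, and 14.0% of shared sites held 3 or more. Upstream site 2 (chr11:98766348-98767663), whose boundary touches that of site 1, was centred 2583 bases before the start, with 53 against 7 reads (fold 6.75) and 1 GATA word. The intronic site (chr11:98772706-98773380) was centred 3907 bases after the start, with 54 against 6 reads (fold 7.86). It was the one of the 3 with the composite word CTG, 6 to 8 bases, then a GATA word, which 32.7% of shared sites had. At least 1 GATA word was present at 90.4% of shared sites, so its presence is typical of the class.

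The IRF2BP2-only sites at licensing genes had lower folds than the shared sites of *Cdc6*. Their folds ran from 4.0 (*Mcm5* and *Orc1*) to 5.2 (*Cdc6* and *Mcm7*), below the median of 7.33 over the list. Upstream site 2 of *Cdc6*, at 6.75, was below that median too. By fold it ranked 2045 and the intronic site 1794 of 2730 shared sites. The site over the *Cdc6* start (chr11:98768727-98769395) and that over the *Orc1* start (chr4:108251070-108252609) each included the E2F window printed above. For *Cdc6* this holds the GENCODE start (98769115), while the RefSeq start of the printed promoter (98769465) lies beyond the end of the site. Each also had an E2F word within 100 bases of its centre, as had 1.18% of IRF2BP2-only sites. At *Orc1* this was the printed word, whereas at *Cdc6* it was another one, the printed word lying farther from the centre. The next gene start from that of *Cdc6* was *Rara*, 20017 bases away. For *Orc1* it was *Prpf38a* at 87 bases and for *Mcm7* it was *Ap4m1* at 420 bases. The sites over the *Orc1* and *Mcm7* starts thus lie at the start of another gene too. The other *Mcm7* site is centred 1092 bases before the *Mcm7* start and does not include it.

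**Figure D4:**
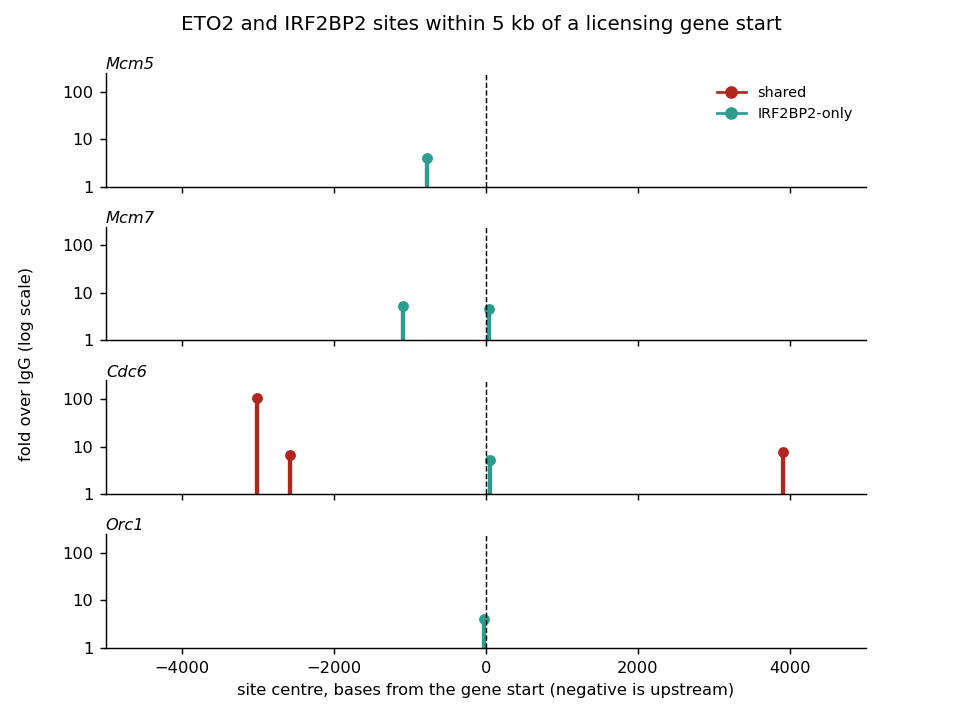
Sites of ETO2 and IRF2BP2 within 5 kb of the start of the 4 licensing genes that had one; the horizontal axis is the distance of the site centre from the start in bases and the vertical axis the deposited fold over IgG (log scale). Red marks shared and green IRF2BP2-only sites: *Cdc6* has 3 shared sites, one of them with a fold of 108, and the other genes have none.

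Beyond the 10 genes, lists of replication genes set the scale of these changes, each read beside the 14.8% of all genes that fell on induction. Of 9 other ORC and MCM genes, 3 fell in induced cells: *Mcmbp*, whose product binds MCM subunits (130.4 to 39.2 CPM, log2 fold change -1.74), *Mcm10* (-1.33) and *Mcm8* (-0.92). Of 12 origin-firing genes 4 fell, among them *Cdc45* (-1.56) and *Gins2* (-1.08), whose products join the ring to form the active helicase. Of 25 replication fork genes 11 fell, among them the polymerase delta subunit *Pold2* (-1.47), the DNA ligase *Lig1* (-1.45) and the clamp loader subunit *Rfc3* (-1.28). Of 8 nucleotide supply genes 4 fell, among them *Dctd* (-2.23), *Dut* (-1.35) and *Tyms* (-1.10). None of 16 mitosis genes and none of 10 genes for the turnover of licensing factors passed in either direction, with medians of -0.20 and -0.04. Among 13 E2F and pocket protein genes, *Tfdp2* (1.39) and *Rb1* (1.09) rose and *Tfdp1* (-1.03) fell. Of the 11713 genes tested, 3187 passed in either direction on induction, 1449 of them higher.

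In the *Cbfa2t3* KD the sole call in these lists at the fold limit was *Cul4a*, a scaffold of the ligase that degrades CDT1 (138 to 198 CPM, log2 fold change 0.52, edgeR adjusted p = 0.0016). *E2f1* rose there by less than the limit (78.8 to 103 CPM, log2 fold change 0.39, edgeR adjusted p = 0.0032). Regardless of size, 3 of 13 E2F and pocket protein genes rose at an edgeR adjusted p of at most 0.05 (5.47% of all genes did). So did 2 of 25 fork, 2 of 8 nucleotide supply, 1 of 16 mitosis and 1 of 10 turnover genes, and none fell. In the *Irf2bp2* KD, *E2f2* rose from 60.6 to 161 CPM (log2 fold change 1.41, edgeR adjusted p = 1.2e-09). The ligase components *Fzr1* (0.55), *Skp2* (0.52) and *Cdc20* (0.51) rose with it. *Fen1*, the flap nuclease of lagging strand synthesis, rose (0.74), and *Mcm10* (-0.75) fell. These are examples, and 22.5% of all genes were called in this KD. In the *Kdm1a* KD, *Gins2* (58.8 to 24.8 CPM, log2 difference -1.24), *Lig1* (-0.82), *Tk1* (-0.78), *Rfc1* (-0.72), *Tyms* (-0.61) and *E2f4* (-0.56) were lower past 0.5 in both KD libraries. They were the only calls in these lists, 1 of 12 origin-firing, 2 of 25 fork, 2 of 8 nucleotide supply and 1 of 13 E2F and pocket protein genes. By that rule 9.80% of all genes were lower. In the *Gfi1b* KD no gene of these lists was called by edgeR, and the medians ran from -0.39 (nucleotide supply) to -0.03 (E2F and pocket proteins).

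**Figure D5:**
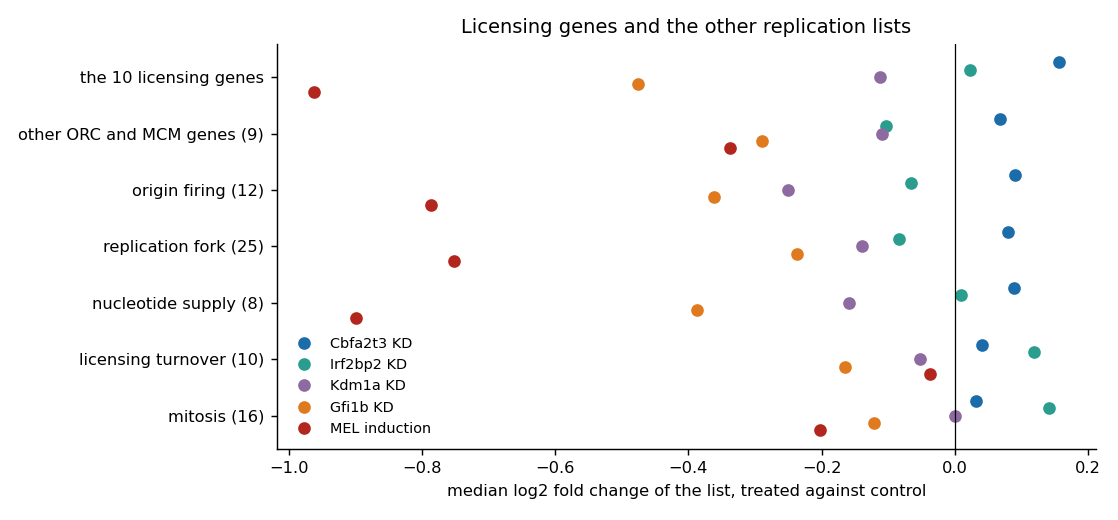
Median log2 fold change, treated against control, of the 10 licensing genes and of 6 other lists (number of genes in brackets) in the 5 comparisons. In MEL induction the licensing genes have the lowest median (-0.96), followed by nucleotide supply (-0.90), origin firing (-0.79) and the replication fork (-0.75), while turnover and mitosis lie nearer to 0.

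Across the 21 libraries, each centred on the controls of its own table, the RNA profiles of the 10 genes had a median Pearson r of 0.877 between pairs. The genes outside the list whose profile was most like the mean of *Mcm2* to *Mcm7*, among 11053 genes, were *Uhrf1* (r = 0.991), *Ppil1* (0.988), *Timm8a1* (0.984), *Tsfm* (0.982) and *Mettl16* (0.982). *Uhrf1* maintains DNA methylation behind the fork. Its log2 fold change on induction was -1.19 and those of the other 4 ran from -1.91 (*Ppil1*) to -1.12 (*Tsfm*), values that the choice of these genes by likeness already used. *Cdc6* had an r of 0.648 with the MCM mean, which ranked 2242 among these genes. These libraries share tables, controls and depth, and the widest differences lie in the induced and Gfi1b KD libraries, so the values describe the libraries and are not tests.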

How the data were processed

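The authors mapped TruSeq mRNA reads (HiSeq 2000) to mm9 with TopHat2 and deposited, per the RefSeq gene, read counts and RPKM values made with rpkmforgenes. The deposited site list gives the authors' fold over IgG, adjusted p-value and, as a score, the read numbers of ChIP and IgG, which the authors scaled to each other (2 value columns were not used here). The authors' own expression comparisons (log2 fold changes and p-values) and the ChIP signal tracks were not used here.

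Counts were fitted per table with edgeR 4.0.16 (quasi-likelihood test, TMM scaling, filterByExpr, Benjamini-Hochberg) in R 4.3.3. Genes were called at an adjusted p of at most 0.05 and a log2 fold change of at least 0.5 in size, the limits the study used. Both *Cbfa2t3* hairpins were pooled in the main comparison. The *Kdm1a* table, with 1 control, was compared without a test, on log2 CPM with a prior count of 2, and a gene was called when both KD libraries passed 0.5 the same way. Named genes are the 10 members, the targeted genes, up to 4 examples per list by size of log2 fold change, and the 5 genes most like the MCM mean. The members and lists were chosen with earlier results of these data known. The fit was tested on simulated counts. Alternatives were DESeq2 1.42.0, other scalings and filters, no fold limit, the replicate number as a block, and leaving out each library. Site distances used GENCODE vM1 starts, and promoters the RefSeq table (GRCm38.p6), whose windows were placed on mm9 by sequence. No 2 libraries agreed within sampling noise (closest pair, chi-square per degree of freedom 9.24).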

Additional observations from a re-analysis of the deposited data

How the results depend on the processing

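In MEL induction, of 110 alternative log2 fold changes of single genes 92 kept their direction and side of the threshold, 8 gained and 10 lost the call. In the other comparisons the reported count was 0, so that a count staying at 0 says nothing about stability. There 9 of 110 values gained the call in the *Gfi1b* KD, and 21 of 630 values over all comparisons changed sign. Without the fold limit the count was 2 in the *Cbfa2t3* KD and 1 in the *Irf2bp2* KD. Leaving out 1 library at a time gave 0 to 9 genes called in the *Gfi1b* KD and 3 to 9 in MEL induction, and 0 in the other comparisons. In MEL induction 8 genes were called by DESeq2 (15.1% of all genes were lower) or with at least 10 counts in every library (15.4%), and 9 without a filter (12.2%). Changing the window to 100 kb put a site near 7 of the 10 genes (60.9% of genes), and keeping sites at or above the median fold left 1 (8.61%), *Cdc6*.

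Sign changes concerned values near 0. *Mcm4* in the *Irf2bp2* KD became 0.000469 with DESeq2 size factors, 0.000482 in the DESeq2 test and 0.0083 without a filter. Scaling by library totals alone gave 0.0088 for *Cdc6* in the *Kdm1a* KD and a median of -0.015 for the 10 genes in the *Irf2bp2* KD. When single libraries were left out, *Mcm5* in the *Cbfa2t3* KD ran from -0.0197 to 0.0110, *Mcm2* from -0.0834 to 0.0268 and *Mcm4* from -0.0341 to 0.0348 in the *Irf2bp2* KD, *Mcm2* from -0.0060 to 0.0549 and *Cdc6* from -0.0490 to 0.0311 in the *Kdm1a* KD, and *Cdc6* from -0.0171 to 0.164 in the *Gfi1b* KD. Between hairpins the ranges were -0.00894 to 0.0830 (*Mcm2*), -0.0545 to 0.0374 (*Mcm5*), -0.0360 to 0.178 (*Cdt1*) and -0.0143 to 0.0103 (*Mcm7*). The cause was not tested. Without a filter, the median of all genes in the *Gfi1b* KD moved to 0.16 on the log2 scale, and 411 genes, none of the 10, were called.

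With the replicate block, licensing genes called numbered 0 in the *Cbfa2t3*, *Irf2bp2* and *Gfi1b* KD and 9 in MEL induction, *Mcm7* and *Cdt1* being added (18.2% of all genes were lower, against 14.8% without the block). Between hairpins the block, chosen for that comparison alone after seeing the data, gave 0. The labels of same-numbered libraries share only the number, and whether these libraries were made together is not stated. Their deviations from the group means correlated at 0.25, 0.12 and 0.25 in the *Cbfa2t3* table. The correlation was 0.03 in the *Irf2bp2*, 0.00 in the *Gfi1b* and 0.20 in the MEL table.

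The lowest count behind a value of the 10 genes was 164 (*Orc1*). Some marker values rest on fewer reads: of the 5 lymphoid markers listed for the *Irf2bp2* KD, 4 had at most 3 counts in every library. The *Kdm1a* table has 1 control and the others have 2. Which of depth, number of libraries and fold limit restricts the calls most was not compared.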
